A study of Mus musculus with 8 samples.

Results

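The genes described here are the myogenic regulatory factors Myf5, Myod1, Myog and Myf6, the upstream transcription factors Pax7, Pax3 and Six4, and Tmem8c, the symbol used in the deposited table for myomaker. They were chosen by symbol, and all 8 were found among the 43628 genes of that table. Pax7 and Pax3 are paired-box factors, and Pax7 marks satellite cells, the stem cells of skeletal muscle. When muscle is injured, satellite cells divide, Myf5 and Myod1 commit them to the muscle lineage, Myog drives their differentiation, and Myf6 is also expressed in mature fibres. These 4 factors bind E-box sequences in DNA together with E-proteins, and myomaker is a membrane protein that lets differentiated myoblasts fuse into fibres.

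RNA of the quadriceps was sequenced from 40 male mice at the age of 8 weeks. The dy2J group held 11 mice of genotype dy2J/dy2J (strain C57BL/6J Lama2dy-2J), which carry a mutant laminin alpha-2 gene, Lama2, and model the congenital muscular dystrophy caused by its loss. The mdx group held 15 mice (strain C57BL/10ScSn-Dmdmdx/J) with a mutant dystrophin gene, Dmd, which model Duchenne muscular dystrophy, and the wild-type group (WT) held 14 mice of strain C57BL/10ScSnJ. The RNA of 5 to 6 mice went into each dy2J pool and that of 4 to 6 into each mdx or WT pool, for 2 dy2J, 3 mdx and 3 WT libraries. A replicate is therefore a pool, and the spread among single mice is not measured. Strain differs between dy2J and the other groups, so the effects of the Lama2 allele and of the strain cannot be told apart.

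Levels are deposited FPKM values, which count fragments relative to transcript length and library size. Their read depth is unknown, because low values did not fall on steps of whole reads. Differences are log2 values of FPKM + 1, tested with limma across the 12830 genes that reached 1 FPKM in 2 or more libraries, and a gene is called when its Benjamini-Hochberg adjusted p is under 0.05. That scale understates changes of genes near or below 1 FPKM. In whole muscle, a change in the number of cells of a type and a change in RNA per cell cannot be told apart.

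Dmd was lowest in mdx and Lama2 lowest in dy2J. Dmd averaged 25.4 ± 3.76 FPKM in dy2J (SD, n = 2), 4.58 ± 0.808 in mdx (n = 3) and 29.8 ± 2.01 in WT (n = 3), and Lama2 averaged 5.19 ± 0.170, 11.0 ± 1.69 and 9.40 ± 0.0505 FPKM in the same order of groups. All 8 skeletal muscle fibre markers exceeded 1 FPKM in every library, with a summed level of 50570 to 56039 FPKM in dy2J, 54189 to 82528 in mdx and 77843 to 94598 in WT. Markers of other cells were present too. The 8 macrophage markers summed to 374 to 456 FPKM in dy2J, 649 to 1326 in mdx and 136 to 157 in WT, with 6 called higher in dy2J and 8 in mdx than in WT, where 11.5% and 23.9% of all tested genes were. The 6 fibro-adipogenic progenitor markers summed to 1183 to 1434, 1013 to 1101 and 977 to 995 FPKM in dy2J, mdx and WT, and the 5 endothelial markers to 69.8 to 71.9, 61.1 to 70.1 and 85.4 to 96.4. The 2 brown adipocyte markers summed to 42.6 and 12.8 FPKM in dy2J 1 and dy2J 2, against at most 2.49 in any other library. The 4 Schwann cell markers summed to 13.05 to 16.5 FPKM in dy2J, 5.51 to 6.58 in mdx and 11.8 to 13.7 in WT, and the 4 adipocyte markers to 103 to 124, 42.6 to 71.7 and 27.3 to 90.7. Both lists thus differed without overlap between dy2J and mdx. The part of these cell types in the results below was not tested.

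Pax7 (ENSMUSG00000028736, chromosome 4, 139737062 to 139833528, GRCm38) was low in all groups. It stood at 0.260 and 0.268 FPKM in dy2J 1 and 2, at 1.08, 1.02 and 1.13 in mdx 1 to 3, and at 0.745, 0.573 and 0.597 in WT 1 to 3. The groups did not overlap, with dy2J lowest and mdx highest. The dy2J pools averaged 0.246 times the mdx mean and 0.414 times the WT mean, and mdx averaged 1.68 times WT. On the log2 scale Pax7 was lower in dy2J than in mdx by a difference of -0.71 ± 0.12 (SE, limma adjusted p = 0.0142), a call lost without dy2J 1 or dy2J 2 (adjusted p = 0.112 and 0.101). Pax7 rose in mdx against WT by 0.34 ± 0.11 (limma adjusted p = 0.0397), but 12 of 16 alternatives ended that call, among them leaving out any library but mdx 2 (adjusted p = 0.0613 to 0.123) and quantile normalization (difference 0.06, adjusted p = 0.674). Between dy2J and WT the difference of -0.37 was not called (limma adjusted p = 0.064), and 7 of 16 alternatives called it. Pax7 entered the test only because the mdx pools exceeded 1 FPKM. The authors' deposited table called it in both models, with q = 0.000749 for dy2J and q = 0.00141 for mdx against WT.

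Pax3 (ENSMUSG00000004872, chromosome 1, 78101267 to 78197134), which specifies muscle precursors in the embryo, did not reach 1 FPKM in any library. It stood at 0.138 and 0.0863 FPKM in dy2J, at 0.267, 0.414 and 0.303 in mdx, and at 0.414, 0.275 and 0.278 in WT. Both dy2J pools lay below all other pools, and mdx and WT overlapped. With no expression minimum, limma gave an adjusted p of 0.118 for dy2J against mdx, 0.0778 for dy2J against WT and 0.991 for mdx against WT. In the authors' deposited table Pax3 had q = 0.00755 for dy2J against WT and q = 0.986 for mdx against WT.

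**Figure D1:**
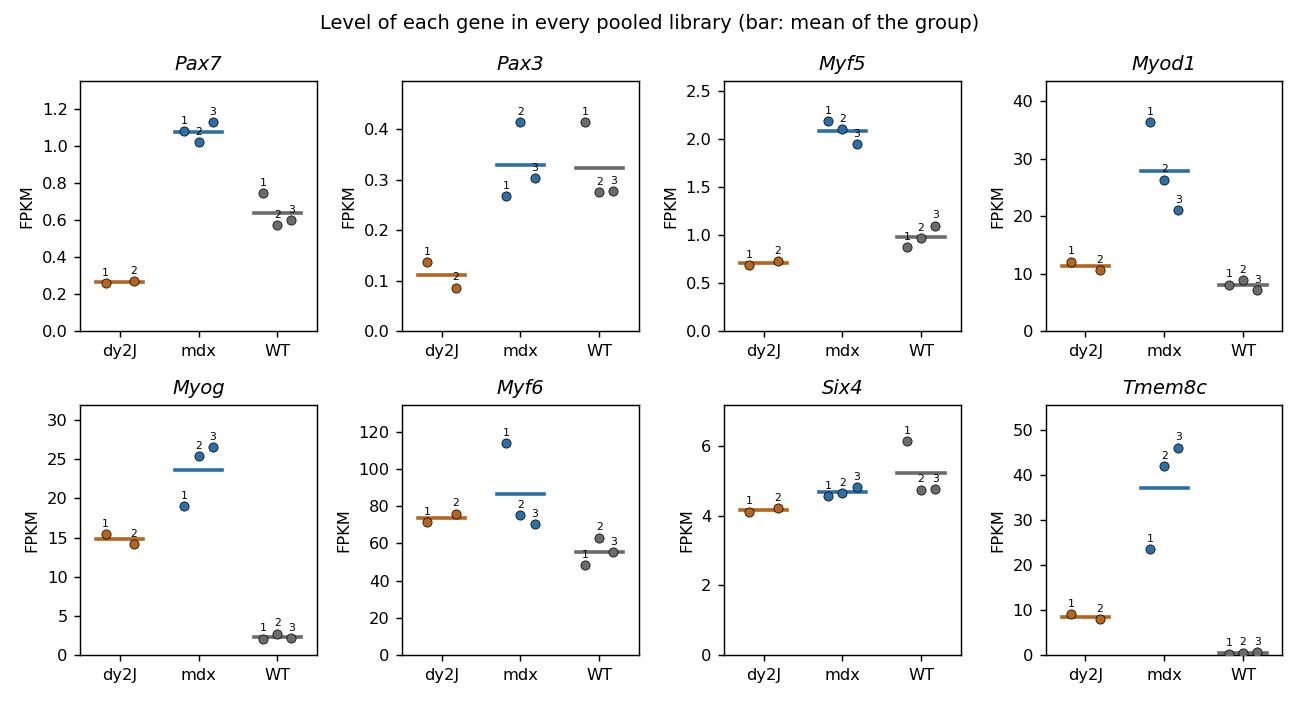
FPKM (y axes, starting at 0) of the 8 genes in each pooled library of dy2J, mdx and WT. Points are libraries with their number and bars are group means. Pax7 and Myf5 are lowest in dy2J and highest in mdx, whereas Myog and Tmem8c are lowest in WT.

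Myf5 and Myod1, the early myogenic factors, were both highest in mdx. Myf5 (ENSMUSG00000000435, chromosome 10, 107482908 to 107486134) stood at 0.689 and 0.729 FPKM in dy2J, at 2.19, 2.10 and 1.95 in mdx, and at 0.878, 0.971 and 1.10 in WT. The 3 groups did not overlap, and dy2J was lowest. Myf5 rose in mdx against WT by 0.64 ± 0.10 (limma adjusted p = 0.00231), and it was lower in dy2J than in mdx by a difference of -0.85 ± 0.12 (limma adjusted p = 0.00535, and 0.0682 without dy2J 1). Between dy2J and WT it was not called, at -0.21 with a 95% interval of -0.48 to 0.05 (limma adjusted p = 0.222). Myf5 reached the minimum of 1 FPKM in 2 libraries only through the mdx pools, where it is high. Its differences from mdx are therefore a description.

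Myod1 (ENSMUSG00000009471, chromosome 7, 46376474 to 46379092) stood at 12.1 and 10.6 FPKM in dy2J, at 36.4, 26.4 and 21.0 in mdx, and at 8.11, 8.87 and 7.14 in WT. The groups did not overlap, with WT lowest and the mdx pools spread most widely. Myod1 rose in mdx by 1.65 ± 0.18 (limma adjusted p = 0.000534), or 3.47 times the WT mean. It was lower in dy2J than in mdx by a difference of -1.19 ± 0.20 (limma adjusted p = 0.0133), which did not pass without dy2J 1 or dy2J 2 (adjusted p = 0.0815 and 0.107). Against WT the dy2J pools averaged 1.41 times the level, a difference of 0.45 with an interval of -0.005 to 0.91 that did not pass (limma adjusted p = 0.145). A fit of the 2 groups alone called it (adjusted p = 0.033), as did the authors' deposited table (q = 0.0294).

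Myog (ENSMUSG00000026459, chromosome 1, 134289989 to 134292548), the factor of terminal differentiation, rose in both models. It stood at 15.4 and 14.2 FPKM in dy2J, at 19.0, 25.4 and 26.6 in mdx, and at 2.09, 2.72 and 2.12 in WT. Neither model overlapped WT, and both dy2J pools lay below the lowest mdx pool. The rise against WT was 2.26 ± 0.16 in dy2J, 6.41 times the WT mean, and 2.89 ± 0.14 in mdx, 10.2 times the WT mean (limma adjusted p = 0.000121 and 1.21e-05). Between dy2J and mdx the difference of -0.63, with an interval of -0.98 to -0.27, did not pass (limma adjusted p = 0.0506). It passed with quantile normalization, median rescaling, a mean of at least 5 FPKM, or without mdx 1 (adjusted p = 0.0144 to 0.0477).

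The promoter of Myog is shown because Myog rose in both models and is a textbook target of the myogenic factors themselves, of MEF2 and of Six4, which binds the MEF3 motif. The upstream stretch of Myf5, which did not follow Myog, is set beside it. Both are the 250 bases before the RefSeq start on GRCm38.p6, read 5′ to 3′ on the strand of the gene, and capitals mark matches to CANNTG (E-box), TCAGGTT (MEF3) or a MEF2 core of TA, 4 letters that are each A or T, and TA, on either strand. The last bases of the Myog stretch lie inside the gene as the deposited table places it.
Myog, chr1:134289754-134290003, plus strand: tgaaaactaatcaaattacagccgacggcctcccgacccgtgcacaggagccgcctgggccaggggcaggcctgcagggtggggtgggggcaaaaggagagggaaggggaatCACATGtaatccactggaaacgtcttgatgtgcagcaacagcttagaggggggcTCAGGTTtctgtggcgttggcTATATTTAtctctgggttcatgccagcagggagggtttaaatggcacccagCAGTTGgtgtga
Myf5, chr10:107486135-107486384, minus strand: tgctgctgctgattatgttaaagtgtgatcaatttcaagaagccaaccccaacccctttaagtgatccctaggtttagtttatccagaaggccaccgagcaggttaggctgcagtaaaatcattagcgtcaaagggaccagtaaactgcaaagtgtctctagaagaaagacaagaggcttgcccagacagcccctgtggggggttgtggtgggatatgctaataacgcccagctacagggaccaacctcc
The Myog stretch held 2 E-boxes, at 138 to 133 and at 12 to 7 bases before the start, 1 MEF3 match at 84 to 78 bases and 1 MEF2 core at 63 to 56 bases before it. The Myf5 stretch held no match. Among 32851 RefSeq promoter windows of 300 bases, 72.3% held CANNTG, 4.1% held TCAGGTT, 9.3% held the MEF2 core, and 0.323% held all of them. Of the 8 genes 4 had a window in that table, and Pax3, Myod1, Myf6 and Tmem8c had none. The Pax7 window held no match, and of the 2 Six4 windows 1 held a MEF3 match on the opposite strand. A match describes letters and not binding. The motifs were chosen as known sites of the Myog promoter, so finding them there was fixed in advance. The shares over all windows therefore test nothing about Myog, and the part of these motifs in its rise was not tested.

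Myf6 (ENSMUSG00000035923, chromosome 10, 107492860 to 107494729), also called MRF4, was the most abundant of the 8 genes in every library. It lies on the same strand as Myf5, 6725 bases away, and none of the 8 genes overlaps another gene of the table. Myf6 stood at 71.4 and 76.0 FPKM in dy2J, at 114, 75.4 and 70.3 in mdx, and at 48.2, 63.1 and 55.4 in WT. Both models lay above WT without overlap, and dy2J lay within the range of mdx. Myf6 rose in mdx against WT by 0.60 ± 0.18 (limma adjusted p = 0.0309), but 6 of 17 alternatives ended that call, among them leaving out WT 1, WT 3 or mdx 1 (adjusted p up to 0.0974). In dy2J against WT it was not called, at 0.41 with an interval of -0.055 to 0.88 (limma adjusted p = 0.187), nor between dy2J and mdx, at -0.195 with an interval of -0.66 to 0.27 (limma adjusted p = 0.592).

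Six4 (ENSMUSG00000034460, chromosome 12, 73099609 to 73113456), a homeobox factor that acts with Eya co-activators upstream of the myogenic factors, had the smallest difference of the tested genes in mdx against WT on the deposited scale, although not after quantile normalization. It stood at 4.12 and 4.22 FPKM in dy2J, at 4.57, 4.65 and 4.84 in mdx, and at 6.16, 4.75 and 4.77 in WT. The dy2J pools lay below all others by a small margin, and mdx and WT overlapped. No comparison was called, with differences of -0.14 for dy2J against mdx (interval -0.41 to 0.14), -0.26 for dy2J against WT (interval -0.53 to 0.01) and -0.12 for mdx against WT (interval -0.37 to 0.12), and limma adjusted p of 0.512, 0.157 and 0.394. No alternative called Six4 in any of them.

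Tmem8c (ENSMUSG00000009214, chromosome 2, 27061636 to 27072179), which encodes myomaker, had the largest differences of the 8 genes in each comparison. It stood at 8.99 and 7.97 FPKM in dy2J, at 23.6, 41.9 and 46.1 in mdx, and at 0.279, 0.516 and 0.593 in WT. The groups were far apart, with every mdx pool above both dy2J pools and every dy2J pool above all WT pools. Tmem8c rose by 2.70 ± 0.25 in dy2J and by 4.66 ± 0.23 in mdx (limma adjusted p = 0.000524 and 1.21e-05), which are 18.3 and 80.4 times the WT mean, a mean below 1 FPKM. It was lower in dy2J than in mdx by a difference of -1.96 ± 0.25 (limma adjusted p = 0.00433), and all 17 alternatives kept the 3 calls, with adjusted p of at most 0.0445.

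In dy2J against mdx 0 of the 7 tested genes were higher and 4 lower, namely Pax7, Myf5, Myod1 and Tmem8c, where limma called 2.77% of all tested genes higher and 3.66% lower, 6.43% in either direction. The count of 4 was 1 without dy2J 1 and 2 without dy2J 2. In dy2J against WT 2 were higher, Myog and Tmem8c, and 0 lower, where 11.5% of tested genes were called higher and 9.04% lower, 20.6% in all. In mdx against WT 6 were higher and 0 lower, where 23.9% were called higher and 12.8% lower, 36.7% in all. At an unadjusted p under 0.05 limma gave 0 higher in dy2J than in mdx, 1 lower in dy2J than in WT and 0 lower in mdx than in WT. By the q of the authors' deposited table, 3 of the 8 genes were higher and 2 lower in dy2J than in WT, where 11.1% and 6.27% of the genes tested there were. By the same q 6 were higher and 0 lower in mdx than in WT, where 17.3% and 7.38% were. The median differences of the 7 genes were -0.71, 0.41 and 0.64 in dy2J against mdx, dy2J against WT and mdx against WT, beside -0.08, 0.01 and 0.07 over all tested genes. Pax7 and Myf5 reached the minimum only through the mdx pools, since outside mdx only Myf5 in WT 3 exceeded 1 FPKM, so these counts describe the genes and support nothing further. The split of all calls in mdx against WT depended on scaling, with 3069 higher and 1645 lower as deposited, 2187 and 2947 after quantile normalization and 2435 and 2614 after median rescaling. The groups did not overlap in 7 of the 8 genes between dy2J and mdx, all lower in dy2J, where 28.1% of tested genes were lower and 13.9% higher without overlap. In dy2J against WT 4 genes lay wholly above and 4 wholly below WT, where 31.2% and 29.6% of tested genes did so, and in mdx against WT 6 lay wholly above and 0 wholly below, where 31.4% and 19% did so. The 2 comparisons with WT share the WT pools.

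**Figure D2:**
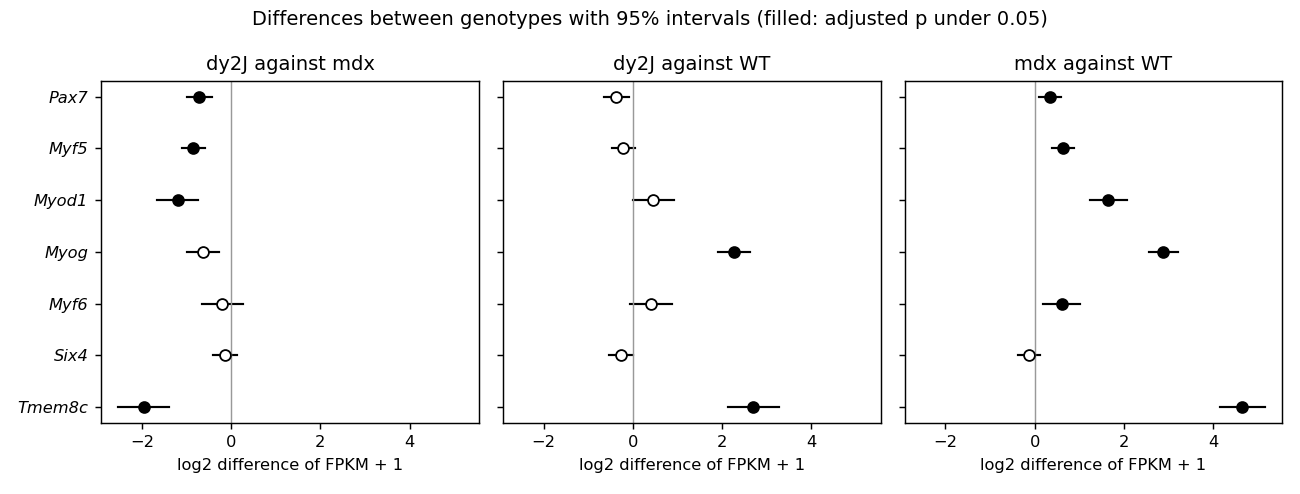
Differences on the log2(FPKM + 1) scale (x axis) of the 7 tested genes in 3 comparisons, with 95% intervals of limma. Filled points passed an adjusted p of 0.05. Myog and Tmem8c lie far right of 0 in both comparisons with WT, and all 7 estimates lie left of 0 in dy2J against mdx, 4 of them filled.

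The order of levels differed between genotypes. In dy2J, Myf6 was followed by Myog (14.8 ± 0.885 FPKM, SD, n = 2), Myod1 (11.4 ± 1.03), Tmem8c (8.48 ± 0.721) and Six4 (4.17 ± 0.0685), and no neighbouring genes overlapped. In mdx, Myf6 was followed by Tmem8c (37.2 ± 11.96 FPKM, SD, n = 3), Myod1 (27.9 ± 7.79) and Myog (23.7 ± 4.09), whose pools overlapped, and then by Six4 (4.69 ± 0.138). In WT, Myf6 was followed by Myod1 (8.04 ± 0.866 FPKM, SD, n = 3), Six4 (5.23 ± 0.803), Myog (2.31 ± 0.355) and Myf5 (0.983 ± 0.111), without overlap, and then by Pax7, Tmem8c and Pax3, of which neighbours overlapped. Tmem8c thus ranked next to last in WT and next to first in mdx.

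The make-up of the myogenic factors also differed. Myf5, Myod1, Myog and Myf6 summed to 99.7 and 102 FPKM in dy2J, to 171, 129 and 120 in mdx, and to 59.3, 75.6 and 65.7 in WT, without overlap between groups. Myf6 made up 71.7% and 74.8% of that sum in dy2J, 66.4%, 58.3% and 58.7% in mdx, and 81.3%, 83.4% and 84.2% in WT. The share of Myog was 15.5% and 14.0% in dy2J, 11.1%, 19.7% and 22.2% in mdx, and 3.53%, 3.60% and 3.23% in WT. Both models thus had a larger Myog share than WT, and dy2J lay within the range of mdx. The share of Myod1 was 12.1% and 10.5% in dy2J, 21.2%, 20.4% and 17.5% in mdx, and 13.7%, 11.7% and 10.9% in WT, so dy2J overlapped WT and both lay below mdx.

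**Figure D3:**
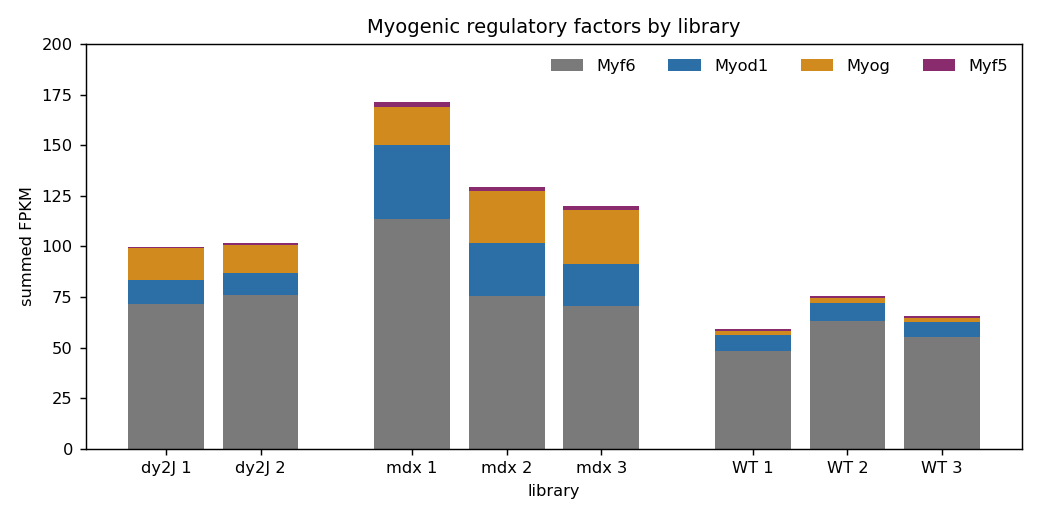
Summed FPKM (y axis, starting at 0) of Myf6, Myod1, Myog and Myf5, stacked for each library of dy2J, mdx and WT. The mdx pools reach 120 to 171 FPKM, the dy2J pools 99.7 and 102, and the WT pools 59.3 to 75.6, and mdx 1 stands out by its Myf6 and Myod1.

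Ratios within a library set the genes against each other without the scale of the library. Myog over Myod1 was 1.28 and 1.33 in dy2J, 0.522, 0.964 and 1.26 in mdx, and 0.258, 0.307 and 0.297 in WT. Both dy2J pools lay above all mdx pools, mdx 3 closely, and all pools of the models lay above WT. Tmem8c over Myog was 0.582 and 0.561 in dy2J, 1.24, 1.65 and 1.73 in mdx, and 0.133, 0.190 and 0.279 in WT, highest in mdx and lowest in WT. The Myog levels of dy2J and mdx did not overlap, so this ratio does not compare Tmem8c at an equal Myog level. Pax7 over Myog was 0.0168 and 0.0189 in dy2J, 0.0567, 0.0400 and 0.0425 in mdx, and 0.356, 0.210 and 0.281 in WT, lowest in dy2J and highest in WT. Myf6 over Myog was 4.62 and 5.36 in dy2J, 5.99, 2.96 and 2.65 in mdx, and 23.0, 23.2 and 26.1 in WT, where dy2J and mdx overlapped. In a two-sided exact permutation test the comparison of mdx with WT gave p = 0.1 for each of these ratios, the smallest that 3 against 3 pools allow. With 2 against 3 pools the smallest is 0.2, which was the value for dy2J against WT in all of them and for dy2J against mdx in all but Myf6 over Myog (0.6), so none could pass 0.05.

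**Figure D4:**
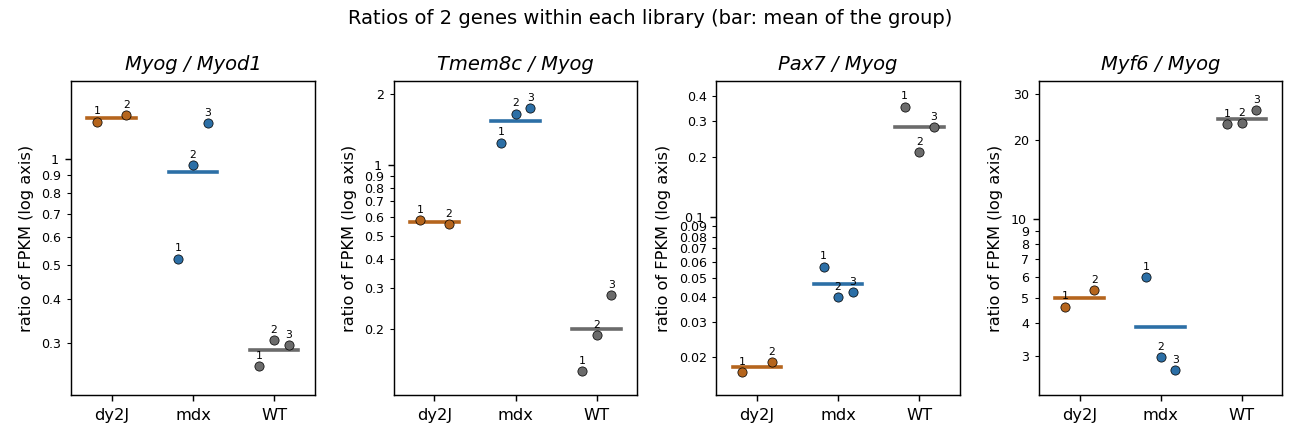
Ratios of the FPKM of 2 genes within each library (log y axes) for dy2J, mdx and WT. Points are libraries with their number and bars are group means. Myog over Myod1 is highest in dy2J, Tmem8c over Myog is highest in mdx, and Pax7 over Myog and Myf6 over Myog are highest in WT.

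The mdx pools differed among themselves. The first, mdx 1, had the highest Myod1 (36.4 FPKM), Myf6 (114) and Myf5 (2.19) of the 3 and the lowest Myog (19.0) and Tmem8c (23.6). The summed macrophage markers were lowest in mdx 1 too, at 649 FPKM against 1326 in mdx 2 and 825 in mdx 3. The 18 genes of cell cycle exit and the cell cycle summed to 162, 225 and 196 FPKM in the 3 pools. Of these sums the inhibitor Cdkn1a alone held 50.7, 63.6 and 66.5 FPKM. The part of these lists in the spread among the mdx pools was not tested.

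Genes around the myogenic factors were counted by list, beside the shares and medians over all tested genes. For dy2J against mdx, dy2J against WT and mdx against WT those medians were -0.08, 0.01 and 0.07. Satellite cell and niche receptor genes had 21 countable members, after Cdh15, the M-cadherin gene, was left out because it was listed at 0 FPKM in WT 1 beside 5.55 and 5.07 in WT 2 and 3. Of them 0 were higher (1 at an unadjusted p under 0.05 by limma) and 4 lower in dy2J than in mdx, 2 higher and 1 lower in dy2J than in WT, and 9 higher and 1 lower in mdx than in WT, with medians of -0.33, -0.02 and 0.15. Over all tested genes 2.77% were higher and 3.66% lower in the first comparison, 11.5% and 9.04% in the second, and 23.9% and 12.8% in the third, so the dy2J counts against WT were at or below the background. Over the 17 alternatives the 4 lower than in mdx ranged from 0 (without dy2J 1) over 1 (without dy2J 2) and 2 (without mdx 2 or mdx 3) to 7 (without mdx 1), and the 9 higher in mdx from 5 to 9. Cxcr4, a chemokine receptor, and Fgfr4, a fibroblast growth factor receptor, rose in mdx by 1.96 and 1.07 and were lower in dy2J than in mdx, by differences of -1.41 and -1.40 (limma adjusted p = 0.0136 and 0.00661). Ncam1, an adhesion molecule of satellite cells and denervated fibres, averaged 126 ± 5.89 FPKM in dy2J, 191 ± 109 in mdx and 20.2 ± 4.44 in WT, and rose in both models by 2.60 and 3.03 (limma adjusted p = 0.00517 and 0.000839). Chrdl2, a chordin-like secreted protein, fell in both, by differences of -0.77 and -0.44. Chrdl2 entered the test only because the WT pools exceeded 1 FPKM, so its fall is a description. Macrophages and other cells also express some of these genes, Cxcr4 and Vcam1 among them.

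Partners, cofactors and inhibitors of the myogenic factors had 37 tested members, with calls in both directions. In dy2J against mdx 2 were higher and 5 lower, in dy2J against WT 7 and 9, and in mdx against WT 13 and 9, with 30, 21 and 15 not called and medians of -0.15, -0.04 and 0.09, close to those of all genes. The shares over all tested genes were 2.77% higher and 3.66% lower, 11.5% and 9.04%, and 23.9% and 12.8%. The 5 lower in dy2J than in mdx became 2 or 3 in 11 of 17 alternatives, and without dy2J 1 the counts against WT were 4 and 3. The E-protein genes Tcf3 and Tcf4, partners of the myogenic factors, rose slightly in mdx (0.40 each, limma adjusted p = 0.0248 and 0.04), and Tcf12 was not called. The Id genes encode inhibitors that bind E-proteins. Id2 rose by 0.94 in dy2J and by 1.34 in mdx, Id3 by 0.84 and by 0.77, and Id1 in mdx by 0.999, with 0.70 and no call in dy2J (limma adjusted p = 0.116). Msc, which encodes the repressor musculin, rose by 1.01 in dy2J and by 0.999 in mdx.

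Mdfi, an inhibitor of the MyoD family, averaged 1.86 ± 0.693 FPKM in dy2J, 12.01 ± 3.03 in mdx and 0.993 ± 0.135 in WT. It rose in mdx by 2.68 (limma adjusted p = 0.000121) and was lower in dy2J than in mdx by a difference of -2.18 (limma adjusted p = 0.00128), without a call in dy2J against WT (0.50, limma adjusted p = 0.134). Vgll2, a cofactor of TEAD factors, went the other way, at 47.8 ± 2.13 FPKM in dy2J, 19.8 ± 1.93 in mdx and 21.6 ± 4.22 in WT, and was higher in dy2J than in mdx by 1.23 (limma adjusted p = 0.00479) and than in WT by 1.13. Of the TEAD genes, Tead4 rose by 0.96 in dy2J and by 0.93 in mdx. The more abundant Tead1 averaged 34.4 ± 0.373 FPKM in dy2J, 27.4 ± 5.05 in mdx and 39.02 ± 2.04 in WT, and fell in mdx by a difference of -0.51 (limma adjusted p = 0.017), without a call in dy2J (-0.17, limma adjusted p = 0.433). Among the partners of Six4, Eya4 fell in dy2J by a difference of -1.14 and in mdx by one of -0.51. Eya1 was called lower only in mdx (-0.66, limma adjusted p = 0.0296), with -0.60 and no call in dy2J (limma adjusted p = 0.0889). Eya2 (0.20 in dy2J and -0.29 in mdx) and Eya3 (-0.31 and 0.19) were not called against WT. Six2, a related homeobox gene, fell by differences of -0.60 and -0.48. Dach2, a Dachshund family protein that acts with Eya factors, averaged 0.690 ± 0.128 FPKM in dy2J, 0.0635 ± 0.0188 in mdx and 2.06 ± 0.203 in WT. It fell in both models (limma adjusted p = 0.00379 and 0.000127), but it entered the test only because the WT pools exceeded 1 FPKM. The fall of Dach2 is therefore a description. Bhlhe41, a repressor of Myod1 activity, fell by differences of -1.27 in dy2J and -0.76 in mdx.

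Of 31 tested fusion genes 0 were called in dy2J against mdx in either direction by limma (1 higher and 4 lower at an unadjusted p under 0.05), 8 were higher and 2 lower in dy2J than in WT, and 15 higher and 2 lower in mdx than in WT, with medians of -0.20, 0.22 and 0.42. Over all tested genes 2.77% were called higher and 3.66% lower in dy2J against mdx, 11.5% and 9.04% in dy2J against WT, and 23.9% and 12.8% in mdx against WT. The list leaves out Tmem8c, which was called lower in dy2J than in mdx. The 8 higher in dy2J became 1 without dy2J 1 and 5 without dy2J 2, and the 15 higher in mdx ranged from 8 to 15 over the 17 alternatives. Gm7325 was at 5.85 and 3.26 FPKM in dy2J, at 6.13, 11.99 and 9.50 in mdx, and at 0.164, 0.454 and 0.240 in WT. Its symbol is the one in the table for the gene of myomixer, the small protein that works with myomaker in fusion. The models lay above WT without overlap, and dy2J lay below mdx, mdx 1 closely. Gm7325 rose by 2.08 in dy2J and by 2.95 in mdx (limma adjusted p = 0.00221 and 0.000185), and dy2J against mdx was not called (-0.88, limma adjusted p = 0.0894). Gm7325 over Tmem8c was 0.651 and 0.409 in dy2J, 0.260, 0.286 and 0.206 in mdx, and 0.586, 0.880 and 0.405 in WT, so that mdx lay below both other groups. Adam12, a metalloprotease of fusing myoblasts, rose by 1.19 in dy2J and by 1.12 in mdx, and Myof, which encodes myoferlin, rose in mdx by 1.33, with 0.71 and no call in dy2J (limma adjusted p = 0.169).

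Sarcomere and related genes, part of them developmental forms that new fibres express, had 15 tested members. Of them 4 were higher and 3 lower in dy2J than in mdx, 9 higher and 0 lower (1 at an unadjusted p under 0.05 by limma) in dy2J than in WT, and 8 higher and 1 lower in mdx than in WT, with medians of -0.06, 1.64 and 0.86. Over all tested genes the shares were 2.77% and 3.66%, 11.5% and 9.04%, and 23.9% and 12.8%. The counts of 9 and 8 higher than in WT ranged from 8 to 11 and from 8 to 9 over the 17 alternatives, and the 4 higher in dy2J than in mdx became 2 without dy2J 1 or dy2J 2. Tnnt2, the cardiac and embryonic troponin T, averaged 7.53 ± 1.32 FPKM in dy2J, 28.9 ± 7.68 in mdx and 0.486 ± 0.138 in WT, and was lower in dy2J than in mdx by a difference of -1.78 (limma adjusted p = 0.00302). The neonatal myosin Myh8 and the embryonic light chain Myl4 were lower in dy2J too, by differences of -1.73 and -1.72. Other genes of the list went both ways between dy2J and mdx without a call. Tnni1 and Myl6b were higher in dy2J without overlap, by 0.73 and 0.28 (limma adjusted p = 0.0891 and 0.164). Myh3 and Actc1 were lower without overlap, by differences of -1.42 and -1.08 (limma adjusted p = 0.0587 and 0.0696). Tnni1 had the largest rise of the list in dy2J against WT, at 5.53. Csrp3, a stretch-responsive Z-disc protein, averaged 193 ± 16.1 FPKM in dy2J, 28.5 ± 2.84 in mdx and 36.2 ± 3.90 in WT. It was higher in dy2J than in mdx by 2.72 (limma adjusted p = 2.3e-05), as were the actin-binding Xin repeat genes Xirp1 and Xirp2 by 2.09 and 0.75 and the LIM-domain gene Fhl1 by 1.73. These are the 4 genes called higher in dy2J than in mdx, and none is a developmental form.

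Acetylcholine receptor and junction genes, several of them textbook targets of the myogenic factors, had 8 tested members. Of them 0 were higher and 2 lower in dy2J than in mdx, 3 higher and 1 lower in dy2J than in WT, and 4 higher and 0 lower in mdx than in WT, with medians of -0.54, 0.23 and 0.65. At an unadjusted p under 0.05 the counts of 0 stayed at 0 by limma. Over all tested genes 2.77% and 3.66%, 11.5% and 9.04%, and 23.9% and 12.8% were called, so the 1 of 8 lower in dy2J than in WT is near the background. Without dy2J 1 the counts in dy2J were 0 lower than in mdx and 0 higher than in WT, and without dy2J 2 they were 0 and 1. The first was 1 without WT 2, WT 3 or mdx 3, and the second 1 without WT 3. The 4 higher in mdx ranged from 3 to 4 over the alternatives. Chrna1, the alpha subunit, averaged 8.93 ± 0.607 FPKM in dy2J, 22.2 ± 7.75 in mdx and 3.52 ± 0.398 in WT, and rose by 1.14 and by 2.30 in the models (limma adjusted p = 0.0183 and 0.000406). Genes of cell cycle exit and the cell cycle had 17 tested members. Of them 1 was higher and 1 lower in dy2J than in mdx, 6 higher and 0 lower in dy2J than in WT, and 13 higher and 0 lower in mdx than in WT, with medians of -0.41, 0.51 and 1.10. Here too the counts of 0 stayed at 0 at an unadjusted p under 0.05 by limma. The list holds inhibitors such as Cdkn1a and Cdkn1c, and its median of 1.10 in mdx against WT is the difference of Cdkn1c. Ccnb1, Mki67 and Mcm5, all called higher in mdx than in WT, entered the test only because mdx pools exceeded 1 FPKM. Their differences from mdx are therefore a description. The single calls each way between dy2J and mdx are near the background of 2.77% and 3.66%, and 11.5% and 23.9% of all tested genes were higher in dy2J and in mdx than in WT. The 6 higher in dy2J ranged from 1 (without dy2J 1, WT 1 or WT 3) over 2 (without dy2J 2 or WT 2) to 10 without mdx 2 and 13 in a fit of the 2 groups alone, and the 13 higher in mdx became 4 with a mean of at least 5 FPKM. Cdkn1c, an inhibitor that accompanies cell cycle exit in muscle, averaged 8.54 ± 1.18 FPKM in dy2J, 20.8 ± 2.19 in mdx and 9.21 ± 1.24 in WT. It rose in mdx by 1.10 (limma adjusted p = 0.000633) and was lower in dy2J than in mdx by a difference of -1.20 (limma adjusted p = 0.00327). Cdkn1a, another inhibitor, rose in both models by 2.22 and 2.60.

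**Figure D5:**
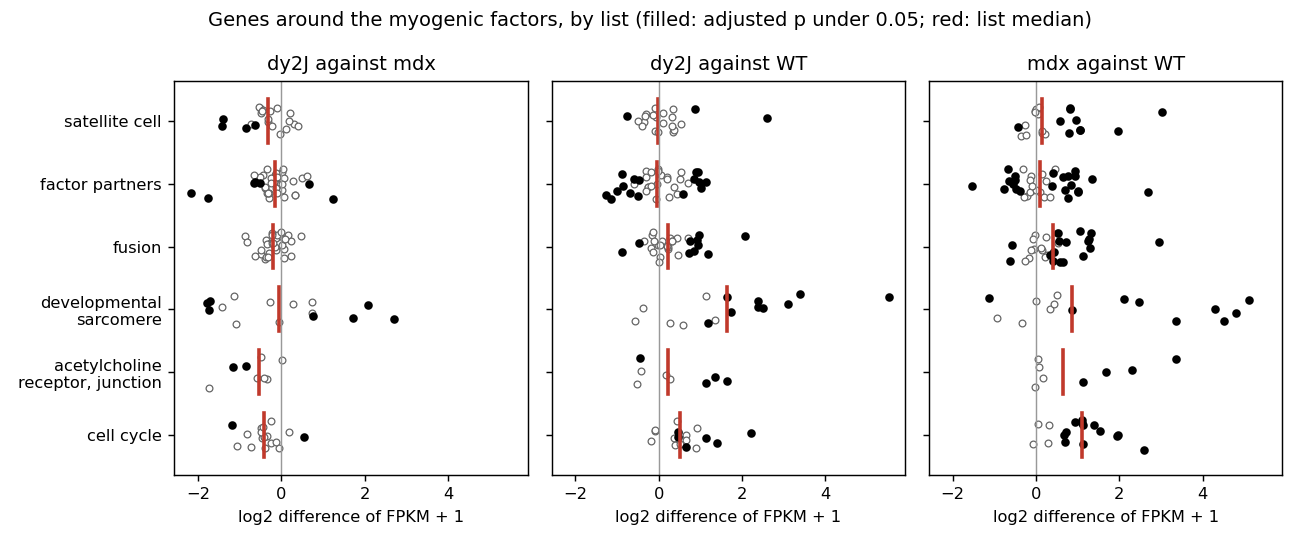
Differences on the log2(FPKM + 1) scale (x axis) of tested genes in 6 lists around the myogenic factors, for 3 comparisons. Each point is a gene, filled points passed an adjusted p of 0.05, and red bars are list medians. The medians in mdx against WT run up to 1.10 for the cell cycle list, which includes genes of cell cycle exit. In dy2J against WT they run up to 1.64 for the developmental sarcomere list, of which only part are developmental forms.

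The genes with the most similar pattern were found by the Pearson correlation of log2(FPKM + 1) over the 8 libraries, given as a description since the libraries fall into genotypes. Only tested protein-coding genes were ranked, without the 8 genes themselves and without predicted or unnamed genes. Gm7325 was therefore not ranked. For Pax7 the most similar were BC005561 (r = 0.989), Mamstr (0.972), a co-activator of MEF2, and Myo10 (0.969). For Myf5 they were Rnf19b (0.978), Nek6 (0.974) and Ctxn3 (0.973). For Myod1 they were Pigx, Steap1 and Cdkn2a, the last listed at 0 in WT 1 (0.986 to 0.988), and for Myog Cxcl16, Acta2 and Tmem173 (0.994 to 0.996). For Myf6 they were Myc, Phlda1 and Dusp5 (0.966 to 0.974), for Six4 Acvr2a, Abhd13 and Zfp280b (0.955 to 0.973), and for Tmem8c Rps9, Tnnt2 and Rps19 (0.996 to 0.998). Among the genes themselves Myog and Tmem8c were most alike (0.979), followed by Pax7 and Myf5 (0.915), while Pax7 and Myog shared little (0.271).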

How the data were processed

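Total RNA of quadriceps was pooled within genotype, and libraries were assigned to groups from their labels. One table, per the file headers, holds the FPKM that the authors deposited for each library, and their own p-value and q-value for each model against WT. Alignment to GRCm38 with TopHat2 2.0.13 and quantification with Cufflinks 2.2.1, Cuffnorm and Cuffdiff are inferred from the tool names in the submitters' processing notes, which give no settings. The scaling between libraries and the use of strand were not given there. Depth is unknown: at the best of many step sizes tried per library, 22.7% to 27.6% of low values of genes with 1 transcript lay within 0.1 of a whole step. Uniform values would give 20% at 1 fixed step, and choosing the best step raises that share. Summed FPKM was 556218 to 785513, which is not a depth.

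Values were fitted as log2(FPKM + 1) with limma 3.58.1 in R 4.3.3. The model took all 8 libraries, genotype as the only term (leaving 5 residual degrees of freedom) and a mean-variance trend, two-sided, adjusted by Benjamini-Hochberg over 12830 genes. The fit was tested on simulated data. Ratios and figures used Python 3.11.15, scipy 1.17.1 and matplotlib 3.10.9. Promoter sequences came from RefSeq (GRCm38.p6). The members and lists were chosen with earlier results of these data known. Named genes are the 8 members, the 3 largest called differences per list, partners of the members and the 3 most similar genes of each, given in part. Myh8, Myl6b, Actc1, Fhl1, Xirp2, Tead1, Tead4, Ccnb1, Mki67 and Mcm5 fall outside that rule and were chosen after their values were seen. Motifs were those of the Myog promoter known from textbooks. Alternatives were other pseudocounts (0.1 and 0.5), expression minima, scalings, fits and left-out libraries.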

Additional observations from a re-analysis of the deposited data

Results flagged for a closer look

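In the direct test of dy2J against mdx, Myod1 and Tmem8c were lower in dy2J, with log2 differences of -1.19 and -1.96 (limma adjusted p = 0.0133 and 0.00433), where 3.66% of all tested genes were called lower. Both lay above WT in every pool of both models, and the call of Myod1 was lost without dy2J 1 or dy2J 2. Pax7 and Myf5 had log2 differences of -0.71 and -0.85. They entered the test only through the mdx pools, where they are high, so these values are a description and support no difference between the models.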

How the results depend on the processing

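Over 17 alternatives, 314 of 351 differences of single genes kept their direction and their side of the threshold, 24 lost a call, 12 gained one and 1 changed sign. Without single libraries Myf6 in dy2J against mdx ranged from -0.326 to 0.017, the last without mdx 1, and was never called. Without single libraries the count of genes lower in dy2J than in mdx ranged from 1 to 5 around 4, with 1 (Tmem8c) without dy2J 1 and 2 (Myf5 and Tmem8c) without dy2J 2. There the remaining dy2J pool is assumed to vary like the other groups. The count of genes lower in dy2J than in WT was 1, Pax7, instead of 0 with a pseudocount of 0.1, no expression minimum, quantile normalization, median rescaling, the compared groups alone or no mean-variance trend, and 0 to 1 without single libraries, 1 being without mdx 2. Rescaling shifted the median of all genes in mdx against WT from 0.07 to -0.07 (quantile) and to -0.03 (median ratio), and the cause was not tested. Same-numbered pools of WT and mdx correlated at 0.045 to 0.085 in their deviations from the group means, and differently numbered ones at -0.116 to 0.06. Same-numbered pairs with a dy2J pool correlated at -0.146 to 0.051. Deviations within a group depend on each other, so these values cannot tell whether same-numbered pools share more than a number. The replicate number as a block left 4 genes higher in mdx than in WT in place of 6, 3 lower in dy2J than in mdx in place of 4, Pax7 being lost there (adjusted p = 0.0512), and 2 higher in dy2J than in WT. Of 612 list counts under alternatives 125 moved by over 1.5 times. The unknown depth limits Pax7, Pax3 and Myf5 most, since they lie near or below 1 FPKM.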
